A study of Mus musculus with 30 samples.

Results

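The insulin-like growth factor (IGF) axis was followed here through 8 genes in the primordial germ cells of the mouse, from which eggs and sperm later arise: the receptor genes Igf1r and Insr, the binding protein genes Igfbp2, Igfbp3, Igfbp4 and Igfbp5, and the adaptor genes Irs1 and Irs2. These are 8 of 19937 genes with a probe set on the Affymetrix array, taken by gene symbol, with the probe set of the highest mean over all 30 arrays where a gene had more than 1. The group was chosen by the measured genotype difference of 2 of them, since the log2 signals of Igf1r and Igfbp2 had been seen higher in all Rnf2delta groups, so the difference between genotypes is given as a description of the members, with no test. Differences between stages and between sexes within a genotype were not themselves a ground of the choice and were tested. They use some of the same arrays, however. For Igf1r and Igfbp2 the choice favours low control arrays at E11.5 and E12.5, and so a rise from these to the control arrays at E13.5. Whether the genotype difference varied with sex or stage was tested too, but a choice of genes high in all Rnf2delta groups favours little variation, so for Igf1r and Igfbp2 that variation is given with no test.

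The 30 arrays formed 10 groups of 3. Rnf2delta germ cells (genotype Ring1+;Rnf2delta) were sampled from females and males at E11.5 and E12.5 (E for embryonic day), and control germ cells (Ring1+;Rnf2+) from females and males at E11.5, E12.5 and E13.5. All embryos carried the Oct4(deltaPE)-GFP transgene, which marks germ cells and served to sort them, and a mixed 129/Sv and C57BL6J background. Both genotypes kept Ring1, which encodes a paralogue of RNF2 that is also a ubiquitin ligase of Polycomb repressive complex 1. The agent that removed Rnf2 is not given in the labels. Each sample held the amplified RNA of 500 sorted cells, and nothing in the labels says whether the 3 samples of a group came from separate embryos, so p-values cover only the spread among these samples and that spread may be technical.

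Insulin-like growth factors 1 and 2 bind the receptor tyrosine kinase encoded by Igf1r, and insulin binds its close relative encoded by Insr. Activated receptors recruit the docking proteins Irs1 and Irs2, which pass the signal to phosphatidylinositol 3-kinase (PI3K), AKT and mTOR and so to growth and survival. Outside the cell, binding proteins of the Igfbp family hold the growth factors and set how much of them reaches the receptors. In mouse gonads, the insulin and IGF1 receptors together are known to be needed for normal male sex determination, and in zebrafish, IGF signalling is known to act on primordial germ cell migration and survival.

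Germ cell markers were among the brighter signals of each array. All 8 had a median rank between the 84.8 and the 98.4 percentile of their array, with Pou5f1 at a log2 signal of 8.45 to 9.71, and the mean over these markers was 7.03 to 7.57 on single arrays. In E12.5 females, where 9.89% of all genes were called, 3 of the 8 were lower in Rnf2delta than in controls: Pou5f1 (-0.65, limma adjusted p = 0.0068), Dppa3 (-0.56, adjusted p = 0.014) and Dnd1 (-0.69, adjusted p = 0.037). Their part in the other differences of that pair was not tested. In the other 3 pairs 0 of the 8 were called. All genes were called there at 0.553% in E11.5 females, 0.718% in E11.5 males and 0.962% in E12.5 males, so 0 of 8 cannot be told from the background. Between stages and sexes germ cell markers were called in both directions. In E13.5 controls, 2 of the 8 were higher and 2 lower in females than in males (16.3% of all genes called). The mean over 8 markers of supporting cells lay between 2.41 and 2.97, and that over 8 interstitial and mesenchymal markers between 2.44 and 2.73, near the array medians of 2.52 to 2.66. No supporting, interstitial or mesenchymal marker of these lists passed a comparison of genotype, beside the same shares of all genes called as above. Between stages or sexes a few did. In E13.5 controls, 1 of 8 supporting markers was lower in females than in males (16.3% of all genes called). In Rnf2delta at E12.5, 1 of 8 interstitial and mesenchymal markers was (15.2%). From E11.5 to E13.5, 1 supporting marker rose in control males (11%) and 1 interstitial or mesenchymal marker in control females (26.3%). The part of these markers in the members' stage and sex differences was not tested. The mean over 5 endothelial markers, of which Kdr and Emcn did not pass the filter on low values and Pecam1 is also made by germ cells, was 2.76 to 3.11 on Rnf2delta arrays, against 2.91 to 3.24 on control arrays of the same stages. Pecam1 was called lower in Rnf2delta in E12.5 females (-0.50, adjusted p = 0.019) and E12.5 males (-0.66, adjusted p = 0.01), and the part of this list in the other genotype differences was not tested. Between stages and sexes, endothelial markers were called in both directions. From E11.5 to E13.5 in control males, 2 of 3 tested fell (11% of all genes called), and their part in the members' differences was not tested either. Because each sample is a pool, fewer cells of a type and less RNA per cell cannot be told apart. Rnf2 itself averaged 3.94 ± 0.118 in Rnf2delta and 4.54 ± 0.0766 in control E11.5 females (log2 signal, SD, n = 3 each). It averaged 4.23 ± 0.298 in Rnf2delta and 4.54 ± 0.357 in control E11.5 males, where the arrays overlapped. At E12.5 it averaged 4.72 ± 0.269 in Rnf2delta and 5.35 ± 0.328 in control females, and 4.34 ± 0.21 in Rnf2delta and 5.37 ± 0.266 in control males. Rnf2 was called lower in Rnf2delta at E12.5 in females (-0.63, limma adjusted p = 0.029) and males (-1.03, adjusted p = 0.0022). At E11.5 it was not called in females (-0.61, adjusted p = 0.2) or males (-0.31, adjusted p = 0.8). Where the Rnf2 probe set lies relative to the deleted part of the gene is not given in the sources used here. Arrays of E12.5 females stood apart: their mean correlation with their own group across genes was 0.976 in Rnf2delta and 0.967 in controls, against 0.985 to 0.99 in the other 8 groups, and the median gene's SD was 0.207 in Rnf2delta and 0.238 in controls, against 0.14 to 0.175. One estimate of the spread served all groups, so errors of comparisons with E12.5 females are understated to that extent. On 1 array, Rnf2delta E12.5 male replicate 3, the embryonic globin gene Hbb-y reached 9.71, against 1.56 to 3.22 on the other 29 arrays, and values without that array are given for the genotype differences of the 7 members past the filter on low values.

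Igf1r and Igfbp2 were higher in Rnf2delta than in control germ cells in both sexes at both stages, with no overlap between the arrays in any of the 4 pairs of groups. Averaged over the 4 pairs, the log2 difference was 1.18 for Igf1r, or 2.27-fold, and 1.25 for Igfbp2, or 2.37-fold. Among the 15180 genes tested, these means ranked 31 and 26 from the highest. A higher mean in all 4 pairs was seen in 17.2% of genes, and a higher level with no overlap in all 4 in 0.962%, so the members' pattern, which their choice fixed, is shared with 146 genes in all. Of the other 6 members, Insr, Igfbp3 and Igfbp4 also had a higher mean in all 4 Rnf2delta groups, by smaller amounts (mean log2 differences of 0.47, 0.39 and 0.26). Igfbp5, Irs1 and Irs2 had differences of both signs on the probe sets used.

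Irs1 did not pass the filter on low values, which left 7 members for the tests. Between genotypes, the arrays did not overlap for 4 of the 7 in E11.5 females, beside 14.2% of all genes tested, for 3 in E11.5 males (15.6%), for 4 in E12.5 females (17.7%) and for 2 in E12.5 males (14.6%). The choice of members used these contrasts, so nothing is read from the counts. For stage and sex, a gene was called where limma's p, adjusted over all 15180 genes by the Benjamini-Hochberg method, was under 0.05. In control females, 1 member was called between E12.5 and E11.5, where 18.8% of all genes were, and 1 between E13.5 and E12.5 (21.8%). In control males the counts were 0 (2.62%, and 0 members at an unadjusted p under 0.05) and 1 (1.1%). In Rnf2delta, 3 members were called between the stages in females (18.6%) and 0 in males (0.547%, with 1 at an unadjusted p under 0.05). Between control females and males, 0 members were called at E11.5 (0.25%, 1 unadjusted), 0 at E12.5 (19.1%, 0 unadjusted) and 1 at E13.5 (16.3%). In Rnf2delta, females and males differed for 0 members at E11.5 (0.323%, 3 unadjusted) and 1 at E12.5 (15.2%). Tests of whether the genotype difference varied are counted without Igf1r and Igfbp2, whose choice favours little variation. They called 0 of the other tested members and 0% of all genes between sexes at E11.5 (0 unadjusted). Between sexes at E12.5 they called 0 and 0.296% (1 unadjusted, Insr). Between stages they called 0 and 0.145% in females (1 unadjusted, Insr), and 0 and 0% in males (0 unadjusted). With array weights the 0 counts stayed at 0, except for 1 member between the stages in Rnf2delta males. With 7 members or fewer, none of these shares can be told from the background, and the members are described singly.

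**Figure D1:**
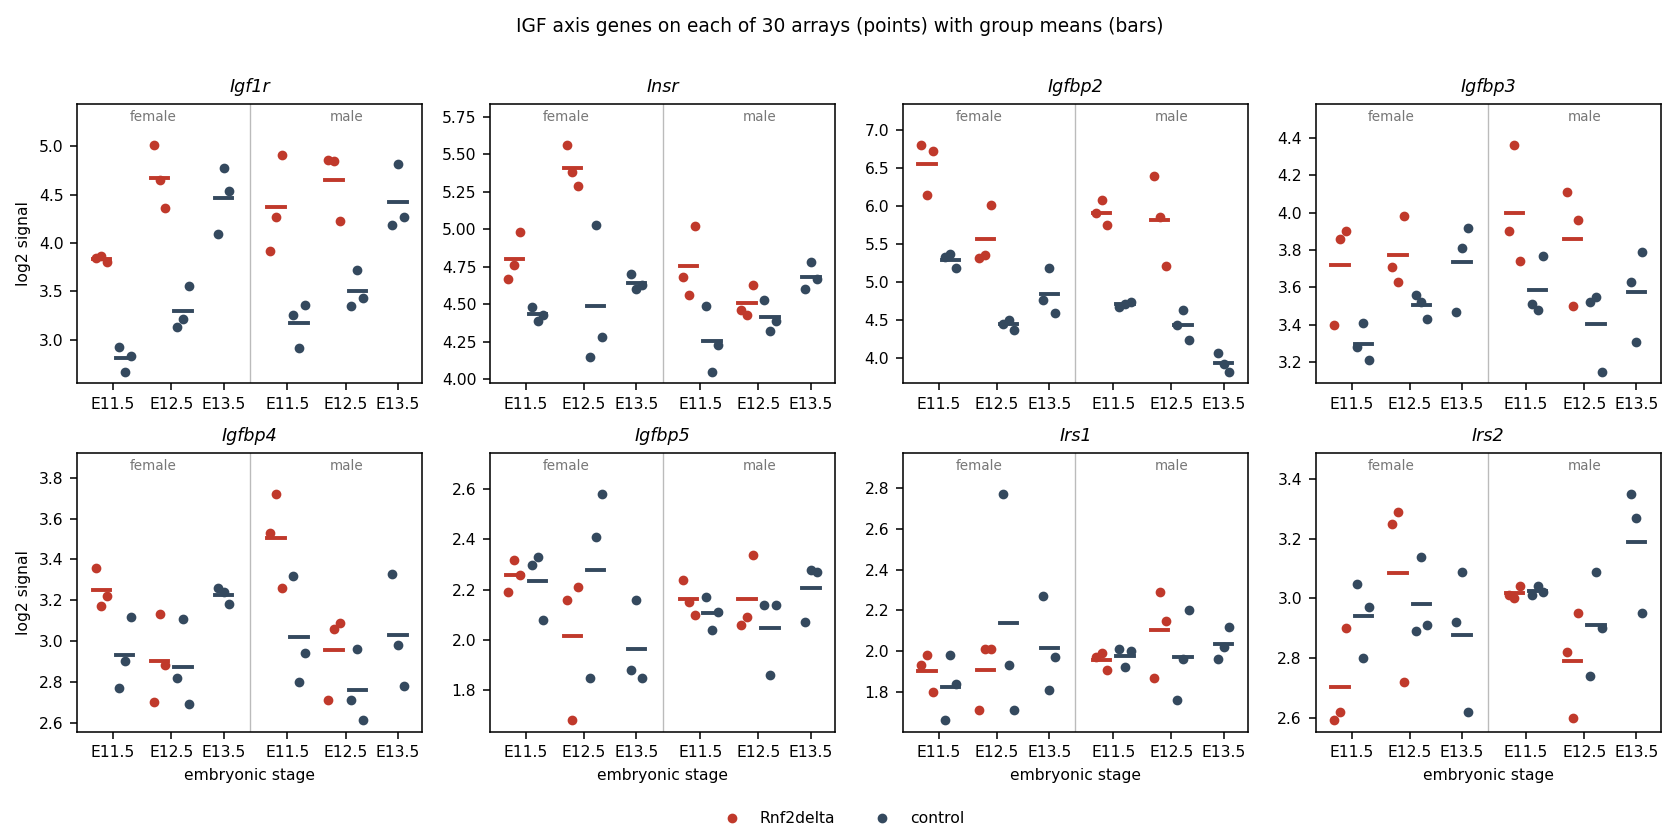
Log2 signal of the 8 members on each of the 30 arrays, by sex and embryonic stage, with Rnf2delta arrays in red left of the control arrays in dark blue. Points are arrays, bars are group means, and each panel has its own vertical scale. Igf1r and Igfbp2 show Rnf2delta arrays above control arrays of the same sex and stage, and the control Igf1r arrays at E13.5 reach 4.09 to 4.82.

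The stretches before the start sites of Igf1r, Igfbp2 and Igfbp5 are shown because the first and second were the members with the larger genotype differences, while Igfbp5 is the neighbouring gene of Igfbp2 on mouse chromosome 1 and had no such difference. Each is the 250 bases before the annotated start on the gene's own strand, 5′ to 3′, from RefSeq on GRCm38.p6, with every CG dinucleotide in capitals. The Igf1r stretch is chr7:67952007-67952256 on the plus strand, the first of 2 annotated Igfbp2 stretches is chr1:72824230-72824479 on the plus strand, and that of Igfbp5 is chr1:72874866-72875115 on the minus strand.
Igf1r: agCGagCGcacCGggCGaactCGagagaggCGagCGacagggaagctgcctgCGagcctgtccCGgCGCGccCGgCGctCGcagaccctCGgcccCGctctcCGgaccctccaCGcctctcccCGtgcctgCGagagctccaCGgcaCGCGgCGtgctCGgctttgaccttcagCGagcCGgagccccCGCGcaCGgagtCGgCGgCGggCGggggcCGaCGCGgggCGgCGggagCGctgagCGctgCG
Igfbp2: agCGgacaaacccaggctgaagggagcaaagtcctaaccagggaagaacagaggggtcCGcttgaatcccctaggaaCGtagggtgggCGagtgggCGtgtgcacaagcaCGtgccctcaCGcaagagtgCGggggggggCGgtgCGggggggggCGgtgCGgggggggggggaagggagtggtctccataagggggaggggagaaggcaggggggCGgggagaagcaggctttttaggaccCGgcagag
Igfbp5: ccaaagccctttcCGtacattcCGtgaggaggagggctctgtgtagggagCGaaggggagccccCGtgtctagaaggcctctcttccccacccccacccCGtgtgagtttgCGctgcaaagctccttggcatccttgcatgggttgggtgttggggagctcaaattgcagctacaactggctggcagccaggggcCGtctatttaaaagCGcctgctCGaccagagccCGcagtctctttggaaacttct
The Igf1r stretch held 42 CG and was 77.6% G or C, and 99.1% of the 32851 stretches of the same length in the table had fewer CG. The printed stretch of Igfbp2 held 14 CG (67.2% G or C) and exceeded 70.6% of all stretches, and that of Igfbp5 held 10 CG (58.8% G or C) and exceeded 62.2%. The stretch at the other Igfbp2 start, not printed, was nearer to that of Igfbp5, with 11 CG (56.4% G or C), and exceeded 64.4%. The median stretch held 6 CG and was 52.4% G or C. Among the other members with an entry, CG counts were 32 for Igfbp3, 22 for Igfbp4, 28 for Irs1 and 34 for Irs2, so members with and without a genotype difference both had CG-rich stretches. CACGTG, searched on both strands, occurred once in the printed Igfbp2 stretch and in those of Irs1 and Irs2, and in 6.02% of all stretches. GCGGGA, also searched on both strands, occurred once in the stretches of Igf1r, Igfbp3, Igfbp4 and Irs2, 2 times at the other Igfbp2 start, and in 16.9% of all stretches. These matches describe letters only, and 7 of the 8 members had an entry.

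Igf1r, the gene of the IGF1 receptor (probe set 10554094), had log2 signals of 3.84, 3.86 and 3.80 in Rnf2delta E11.5 females, against 2.92, 2.67 and 2.83 in control E11.5 females. In E11.5 males it had 3.92, 4.27 and 4.91 in Rnf2delta, against 3.25, 2.91 and 3.36 in controls. The 3 female Rnf2delta arrays lay close together, the male ones were the most spread of any Igf1r group, and all 6 were above all 6 control arrays of that stage. At E12.5 the signals were 5.01, 4.65 and 4.36 in Rnf2delta females, against 3.13, 3.21 and 3.56 in control females. They were 4.86, 4.85 and 4.23 in Rnf2delta males, against 3.35, 3.72 and 3.43 in control males. The genotype differences were thus 1.03 in females and 1.19 in males at E11.5, and 1.37 in females and 1.14 in males at E12.5 (log2, SE 0.22 each). The lowest of the 3 Rnf2delta E12.5 male arrays was the one with the high Hbb-y signal, and without it the difference was 1.35.

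Levels of Igf1r also rose with stage in control germ cells. The choice of Igf1r favours low control values at E11.5 and E12.5. The rises to E13.5 may therefore be overstated and their adjusted p too low. Control females averaged 2.81 ± 0.129 at E11.5, 3.30 ± 0.23 at E12.5 and 4.47 ± 0.345 at E13.5, and control males 3.18 ± 0.234, 3.50 ± 0.195 and 4.43 ± 0.343 at the same stages (log2 signal, SD, n = 3 each). Between E12.5 and E13.5 the rise was 1.16 ± 0.22 in control females (log2 difference ± SE, limma adjusted p = 0.00036) and 0.92 ± 0.22 in control males (adjusted p = 0.033), with no overlap of arrays in either sex. The call in females held in each of 12 alternatives (adjusted p up to 0.0093). The call in males was lost without control E12.5 male replicate 1 (adjusted p = 0.17) or 3 (0.12) and without control E13.5 male replicate 2 (0.28) or 3 (0.06). The step from E11.5 to E12.5 was smaller and did not pass in control females (0.50, adjusted p = 0.12) or control males (0.33, adjusted p = 0.53). Over the whole interval, a comparison added after the data were seen and free of the E12.5 female arrays, E13.5 exceeded E11.5 by 1.66 ± 0.22 in females (adjusted p = 2.1e-06) and by 1.25 ± 0.22 in males (adjusted p = 0.00032), and both calls held in each of 13 alternatives.

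Within Rnf2delta germ cells, Igf1r rose between E11.5 and E12.5 in females by 0.84 ± 0.22 (adjusted p = 0.0081), a call lost without Rnf2delta E12.5 female replicate 1 (adjusted p = 0.066). In Rnf2delta males the difference was 0.28 (adjusted p = 0.7), and 0.49 (adjusted p = 0.41) without the array of high Hbb-y. Ordered by mean, the top of the range was taken by Rnf2delta E12.5 females (4.67) and males (4.65), control E13.5 females (4.47) and males (4.43) and Rnf2delta E11.5 males (4.37), each overlapping the next. The mean in Rnf2delta E11.5 females (3.83) overlapped neither neighbour in that order, and the 4 control groups of E11.5 and E12.5 came last, at 3.50 to 2.81, each overlapping the next. Igf1r did not pass between females and males in any of the 5 comparisons of sex, where differences (female minus male) ran from -0.54, in Rnf2delta at E11.5, to 0.04, and adjusted p from 0.6 to 0.96. The difference in Rnf2delta at E12.5 was 0.03, and -0.18 without the array of high Hbb-y (adjusted p = 0.69). The genotype difference of Igf1r was 0.23 larger in females than in males at E12.5 (0.02 without the array of high Hbb-y), and 0.35 larger at E12.5 than at E11.5 in females (SE 0.31 each).

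Insr, which encodes the insulin receptor (probe set 10576692), was higher on all Rnf2delta arrays than on control arrays of the same sex and stage in 3 of the 4 pairs. In E12.5 females it had log2 signals of 5.56, 5.38 and 5.29 in Rnf2delta, against 4.15, 5.03 and 4.28 in controls, a difference of 0.92 that was 1.19 without control replicate 2. The array of 5.03 lay far above the other 2 controls and was still below every Rnf2delta array. In E11.5 females Insr had 4.67, 4.76 and 4.98 in Rnf2delta, against 4.48, 4.39 and 4.43 in controls (difference 0.37). In E11.5 males it had 4.68, 4.56 and 5.02 in Rnf2delta, against 4.49, 4.05 and 4.23 in controls (difference 0.50). Only the E12.5 male arrays overlapped, at 4.46, 4.43 and 4.63 in Rnf2delta, against 4.53, 4.32 and 4.39 in controls (difference 0.09). The SE of these differences was 0.17. A second Insr probe set gave differences of 0.35 in females and 0.24 in males at E11.5 and of 0.68 in females and 0.04 in males at E12.5, with no overlap of arrays in females only, and its level correlated with the first at r = 0.555 over the 30 arrays.

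Insr passed 2 of the comparisons of stage and sex, and Rnf2delta E12.5 females were the higher group in both. These females had 0.90 ± 0.17 more Insr than Rnf2delta males at E12.5 (adjusted p = 0.00036, up to 0.0095 over 12 alternatives, and a difference of 0.97 without the array of high Hbb-y), and the arrays did not overlap. Rnf2delta females at E12.5 also exceeded Rnf2delta females at E11.5 by 0.60 ± 0.17 (adjusted p = 0.01), a call lost without Rnf2delta E11.5 female replicate 1 (adjusted p = 0.057) or E12.5 female replicate 1 (0.059). Control females and males at E12.5 had means of 4.49 and 4.41 (adjusted p = 0.81). The genotype difference at E12.5 was 0.83 ± 0.23 larger in females than in males, which did not pass (adjusted p = 0.1), but did without control E12.5 female replicate 2 (adjusted p = 0.0067). The corresponding difference between stages in females was 0.55 ± 0.23 (adjusted p = 0.38, and 0.042 without the same array). In controls, Insr passed no comparison of stage or sex with all arrays in the fit at equal weight, and its group means lay between 4.25 and 4.68. Without control E12.5 female replicate 2, the rise between E12.5 and E13.5 in control females did pass (0.43, adjusted p = 0.035), and that between E11.5 and E13.5 in control males passed with array weights (0.44, adjusted p = 0.017) and without the 6 E12.5 female arrays (0.43, adjusted p = 0.024).

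Igfbp2, a secreted protein that binds both growth factors (probe set 10347277), had log2 signals of 6.80, 6.14 and 6.73 in Rnf2delta E11.5 females, against 5.33, 5.37 and 5.18 in control E11.5 females. In E11.5 males it had 5.91, 6.08 and 5.75 in Rnf2delta, against 4.67, 4.71 and 4.73 in controls. All 6 Rnf2delta arrays were above all 6 controls, and the control male arrays were nearly equal. At E12.5 the signals were 5.32, 5.36 and 6.01 in Rnf2delta females, against 4.45, 4.50 and 4.37 in control females. They were 6.39, 5.86 and 5.21 in Rnf2delta males, against 4.43, 4.63 and 4.24 in control males. The differences were 1.26 in females and 1.21 in males at E11.5, and 1.12 in females and 1.39 in males at E12.5 (log2, SE 0.22 each). The array with high Hbb-y was again the lowest of the Rnf2delta E12.5 males, and the difference was 1.69 without it. The genotype difference of Igfbp2 varied by -0.26 to 0.17 between sexes or stages (SE 0.31). Without that array it was 0.57 smaller in females than in males at E12.5 and 0.48 larger at E12.5 than at E11.5 in males.

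Between E11.5 and E12.5, Igfbp2 fell in females of both genotypes. Control females averaged 5.30 ± 0.0995 at E11.5, 4.44 ± 0.0681 at E12.5 and 4.85 ± 0.307 at E13.5, and the fall between E11.5 and E12.5 was -0.86 ± 0.22 (log2 difference ± SE, adjusted p = 0.0053, up to 0.028 over 12 alternatives). Rnf2delta females averaged 5.56 ± 0.387 at E12.5, against 6.56 ± 0.363 at E11.5, a fall of -1.0 ± 0.22 (adjusted p = 0.0015, up to 0.025). In males, the same step was -0.10 in Rnf2delta (adjusted p = 0.92), which turned to 0.21 (adjusted p = 0.75) without the array of high Hbb-y, and -0.27 in controls (adjusted p = 0.63). Control males averaged 4.70 ± 0.0305 at E11.5, 4.43 ± 0.194 at E12.5 and 3.94 ± 0.124 at E13.5. Their whole fall of -0.76 ± 0.22 (added after the data were seen, adjusted p = 0.02) did not pass once control E11.5 male replicate 1, 2 or 3 or control E13.5 male replicate 2 or 3 was left out (adjusted p 0.051 to 0.081), and that in females was -0.45 (adjusted p = 0.13). At E13.5 control females had 4.76, 5.19 and 4.59 and control males 4.07, 3.92 and 3.82, so Igfbp2 was higher in females by 0.91 ± 0.22 (adjusted p = 0.0034, up to 0.039 over 13 alternatives). At E11.5 females also had the higher mean, by 0.64 in Rnf2delta (adjusted p = 0.36) and 0.60 in controls (adjusted p = 0.37), with no overlap of arrays and no call. Control females and males differed by 0.01 at E12.5 (adjusted p = 0.99).

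The other binding protein genes varied less, and with all arrays in the fit at equal weight none of them passed a comparison of stage or sex. Igfbp3, the main carrier of IGFs in blood (probe set 10384223), averaged 3.72 to 4.0 over the 4 Rnf2delta groups, against 3.30 to 3.59 over the 4 control groups of the same stages. Its genotype differences of 0.42 in females and 0.41 in males at E11.5, and 0.26 in females and 0.45 in males at E12.5 (log2, SE 0.18) had the same sign throughout, yet the arrays were apart only in E12.5 females, where Rnf2delta had 3.71, 3.63 and 3.98 and controls 3.56, 3.52 and 3.43. Igfbp4, which a metalloproteinase encoded by Pappa cleaves (probe set 10381096), had 3.36, 3.17 and 3.22 in Rnf2delta E11.5 females, against 2.77, 2.90 and 3.12 in controls, which did not overlap. It had 3.53, 3.72 and 3.26 in Rnf2delta E11.5 males, against 3.32, 2.80 and 2.94 in controls, which did. Differences were 0.32 and 0.49 at E11.5 in females and males, and 0.03 and 0.20 at E12.5 (SE 0.17). From E11.5 to E12.5, Igfbp4 differed by -0.55 in Rnf2delta males (adjusted p = 0.14, and 0.036 with array weights). In Rnf2delta females it differed by -0.35 (adjusted p = 0.15), and the arrays did not overlap in either sex. Igfbp3 rose from E11.5 to E13.5 in control females by 0.43 (adjusted p = 0.074). It passed with only the compared groups (0.042) and without control E13.5 female replicate 1 (0.038). Igfbp5 (probe set 10355500) lay between 1.68 and 2.58 on all arrays, above the 40th percentile of its array on 10 of 30, and its genotype differences were 0.02 in females and 0.05 in males at E11.5, and -0.26 in females and 0.11 in males at E12.5, with overlapping arrays in each pair. Against Igfbp2, its neighbour on the chromosome, Igfbp5 thus had overlapping genotypes and, with all arrays in the fit, no call with stage. Without control E12.5 female replicate 1, its fall between E12.5 and E13.5 in control females (-0.53, adjusted p = 0.013) and its excess in control females over males at E12.5 (0.45, adjusted p = 0.044) did pass.

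The adaptor genes, whose proteins dock to the activated receptors, had genotype differences of both signs on the probe sets used. Irs2 (probe set 10576971) lay between 2.59 and 3.35 on all arrays, and its differences were -0.23 in females and -0.01 in males at E11.5, and 0.11 in females and -0.12 in males at E12.5 (log2, SE 0.15), with overlapping arrays in each pair. Irs1 (probe set 10356084) lay between 1.66 and 2.77 and exceeded the 40th percentile of its array on 2 of 30 arrays, so it did not pass the filter on low values and was not tested. Between genotypes it differed by 0.07 in females and -0.02 in males at E11.5 and by -0.23 in females and 0.13 in males at E12.5, and the single array of 2.77, a control E12.5 female, set the most negative of them. A second Irs1 probe set gave differences of 0.11 in females and 0.13 in males at E11.5. At E12.5 it gave 0.27 in females, of the opposite sign to the first, and 0.02 in males. Its arrays overlapped in each pair, and its level correlated with the first at r = -0.0113 over the 30 arrays. At signals this near the lower end of the array, differences are compressed. Without the array of high Hbb-y, the E12.5 male genotype difference was 0.03 for Insr, 0.40 for Igfbp3, 0.13 for Igfbp4, 0.02 for Igfbp5 and -0.20 for Irs2, each moved by less than the spread between replicates.

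**Figure D2:**
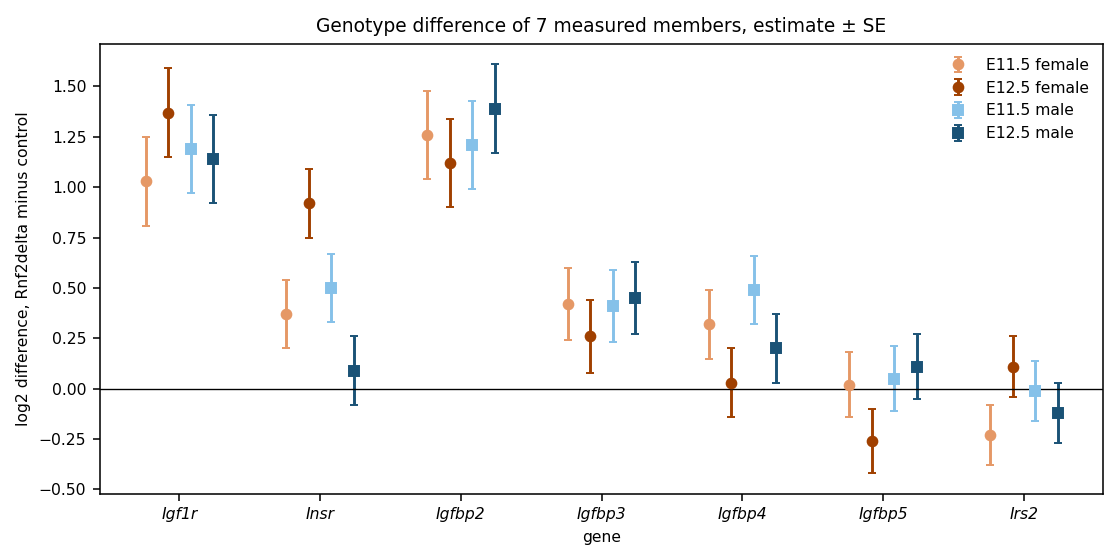
Log2 difference between Rnf2delta and control arrays for the 7 members past the filter on low values, in 4 pairs of groups. Points are estimates from the limma fit and bars their SE; values above 0 mean higher in Rnf2delta. Igf1r and Igfbp2 lie between 1.03 and 1.39 in every pair, Insr between 0.09 and 0.92, and Igfbp5 and Irs2 on both sides of 0.

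The rest of the pathway was read from a list of 57 genes of ligands, receptors, binding partners, adaptors, PI3K and mTOR signalling, negative regulators and Igf2 mRNA-binding proteins, of which 52 were analysed here and 50 passed the filter on low values. Between genotypes, 2 of the 50 rose and 0 fell in E11.5 females, where 0.553% of all genes were called, and 1 rose in E11.5 males (0.718%). In E12.5 females 7 rose and 2 fell (9.89%), and in E12.5 males 1 rose (0.962%). The median genotype difference over the 50 genes was 0.02, 0.01, 0.01 and -0.01 in these pairs of groups, against 0.02, -0.00, 0.05 and 0.01 over all genes. The count in E12.5 females was 9 in all, but 1 with array weights, 1 in a fit of those 2 groups alone, 3 without Rnf2delta E12.5 female replicate 1 or 2, and 5 without control E12.5 female replicate 1 or 3.

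Ptprf, which encodes the receptor-type phosphatase LAR, known to dephosphorylate the insulin receptor, was the gene called in all 4 pairs. It had log2 signals of 5.13, 5.11 and 5.05 in Rnf2delta E11.5 females, against 3.52, 3.45 and 3.82 in control E11.5 females, a difference of 1.50 ± 0.17 (log2 ± SE, limma adjusted p = 8.2e-06). In E11.5 males it had 5.06, 5.33 and 5.12 in Rnf2delta, against 4.02, 3.94 and 3.44 in controls, a difference of 1.37 ± 0.17 (adjusted p = 5.5e-05). Rnf2delta arrays were thus above control arrays in each sex, by more than the whole spread within either group. At E12.5 the signals were 5.02, 5.14 and 5.25 in Rnf2delta females, against 3.55, 3.40 and 3.50 in control females, a difference of 1.65 ± 0.17 (adjusted p = 3.7e-07). They were 4.76, 5.10 and 4.56 in Rnf2delta males, against 3.55, 3.85 and 3.73 in control males, a difference of 1.10 ± 0.17 (adjusted p = 0.0005). All 4 calls held in every alternative run, with adjusted p of at most 0.011, and without the array of high Hbb-y the last difference was 1.22. In control females Ptprf rose between E12.5 and E13.5 by 1.34 ± 0.17 (adjusted p = 2.6e-06). In control males the same step was 0.32 (adjusted p = 0.56). At E13.5 it was higher in females than in males by 0.79 ± 0.17 (adjusted p = 0.0015).

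**Figure D3:**
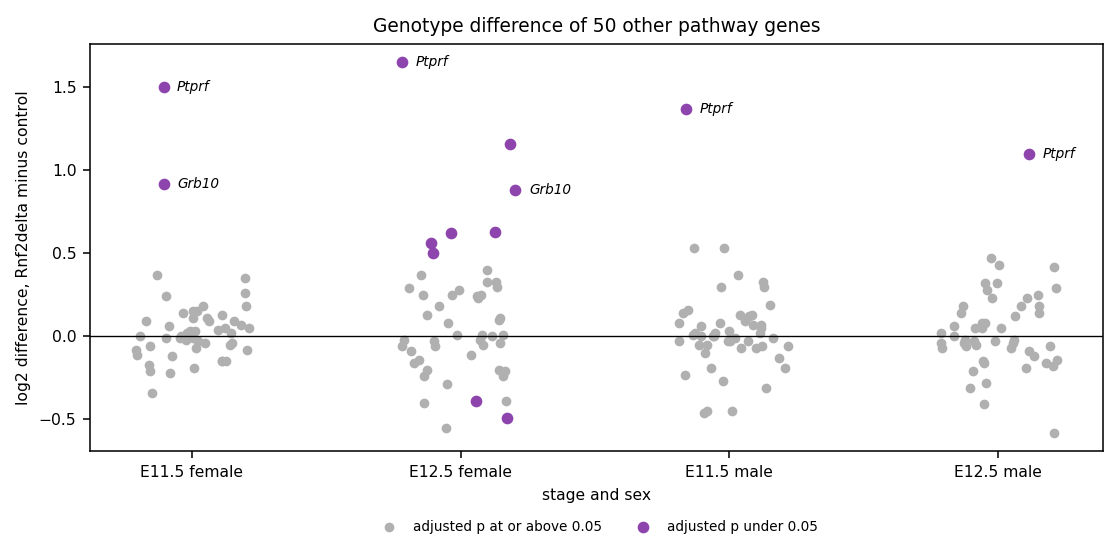
Log2 difference between Rnf2delta and control arrays for the 50 other pathway genes past the filter on low values, in 4 pairs of groups. Each point is 1 gene, spread sideways to limit overlap, in purple where the limma adjusted p was under 0.05. Ptprf is the purple point at 1.10 to 1.65 in every pair, and the purple points of E12.5 females include 2 below 0.

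Grb10, whose product is an adaptor that restrains insulin and IGF1 receptor signalling and whose gene is imprinted, had the other call at E11.5. It had log2 signals of 4.07, 3.67 and 3.36 in Rnf2delta E11.5 females, against 2.85, 2.66 and 2.84 in controls, and 3.71, 3.70 and 3.74 in Rnf2delta E12.5 females, against 2.92, 2.63 and 2.96 in controls. The differences in females were 0.92 ± 0.19 at E11.5 (adjusted p = 0.017) and 0.88 ± 0.19 at E12.5 (adjusted p = 0.0038), with no overlap of arrays. In males they were 0.53 at E11.5 (adjusted p = 0.31) and 0.29 at E12.5 (adjusted p = 0.8). The tests of whether the genotype difference varied between the sexes did not pass (adjusted p = 1 and 0.33). The E11.5 female call did not hold without Rnf2delta replicate 1 (adjusted p = 0.17) or 2 (0.053), or control replicate 1 (0.056) or 2 (0.094). The E12.5 female call was lost with array weights (adjusted p = 0.1) and with only the compared groups (0.077). Also in E12.5 females, Phlpp1, a phosphatase gene that acts on AKT, was higher by 0.62 (adjusted p = 0.02) and Gsk3b, the gene of a kinase inhibited by AKT, by 0.56 (adjusted p = 0.013). With array weights neither passed (adjusted p = 0.18 for Phlpp1 and 0.24 for Gsk3b), and with only the compared groups neither did (0.33 and 0.29).

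Of the ligand genes, Igf1 lay between 2.14 and 2.73 on all 30 arrays and passed no comparison. Igf2, an imprinted gene, had 3.23, 3.32 and 3.54 in control E13.5 females, against 2.82, 2.60 and 2.33 in control E13.5 males, a difference of 0.78 (adjusted p = 0.0064). The call was lost without control E13.5 male replicate 3 (adjusted p = 0.05 as rounded). In Rnf2delta at E12.5, Igf2 was also higher in females than in males, by 0.65 (adjusted p = 0.024), with no overlap of arrays. That call was lost without Rnf2delta E12.5 male replicate 1 (adjusted p = 0.11) or 2 (0.054), or female replicate 2 (0.083) or 3 (0.068). Between genotypes Igf2 differed by 0.63 in E12.5 females (adjusted p = 0.042), with overlapping arrays, and by 0.26 to 0.30 in the other 3 pairs (adjusted p 0.83 to 0.98). The E12.5 female call was lost with array weights (adjusted p = 0.27) and with only the compared groups (0.37). It was also lost without control E12.5 female replicate 1 (0.062) or 3 (0.27), or Rnf2delta E12.5 female replicate 2 (0.12) or 3 (0.091).

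Igf2r, also imprinted, encodes a receptor that clears IGF2 and does not signal as Igf1r does. Its log2 signals were 6.44, 6.63 and 6.49 in control E13.5 females, against 5.51, 5.54 and 5.67 in control E13.5 males, a difference of 0.95 (adjusted p = 0.00027). All 3 female arrays were also above every other array of the series. Control E13.5 females exceeded control E12.5 females by 0.84 (adjusted p = 0.00078), and both calls held in every alternative run. Between genotypes Igf2r differed by 0.09 to 0.35, with no call (adjusted p 0.24 to 1).

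**Figure D4:**
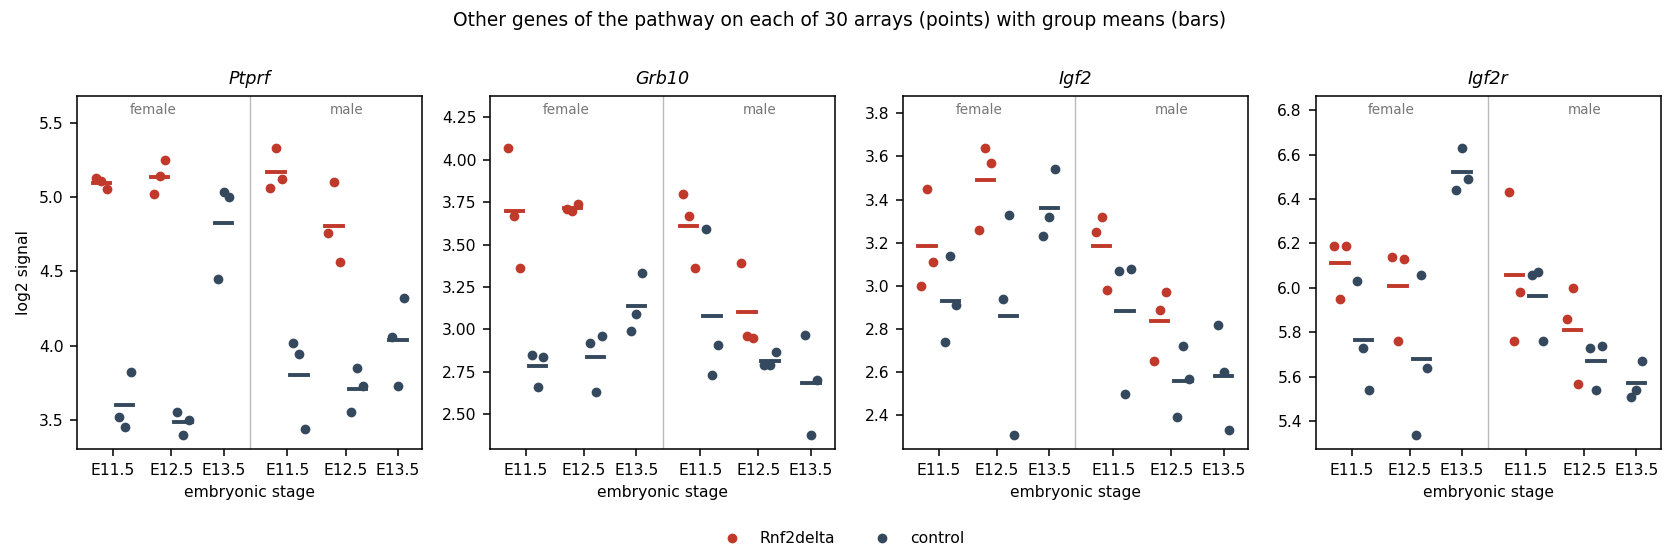
Log2 signal of Ptprf, Grb10, Igf2 and Igf2r on each of the 30 arrays, by sex and embryonic stage, with Rnf2delta arrays in red left of the control arrays in dark blue. Points are arrays, bars are group means, and each panel has its own vertical scale. Ptprf separates the genotypes in each sex and stage, and Igf2r is highest on the control E13.5 female arrays, at 6.44 to 6.63.

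With stage, genes of the list were called in both directions. Between consecutive stages their shares were near those of all genes. From E11.5 to E13.5 the shares were above those of all genes in both sexes, which was not tested. In control females, 3 of the 50 genes rose and 5 fell between E11.5 and E12.5 (18.8% of all genes called), and 11 rose and 1 fell between E12.5 and E13.5 (21.8%). The falls at the first step were led by Igf2bp1, whose product binds Igf2 mRNA (-1.23, adjusted p = 0.0003), Rptor, an mTOR complex 1 subunit (-0.92, adjusted p = 0.00021), and Inppl1, a lipid phosphatase gene (-0.88, adjusted p = 0.00034). Akt1 fell by -0.76 (adjusted p = 0.0044), which did not pass in a fit of just the 2 groups (0.07) or without control E12.5 female replicate 1 (0.06). The rises at the second step were led by Pik3r3, a regulatory subunit of PI3K (1.61, adjusted p = 0.00028), Ptprf and Phlpp1 (1.02, adjusted p = 8.9e-05), and the fall was in Eif4ebp1, a translation repressor inhibited by mTOR (-0.98, adjusted p = 0.001).

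Control males had fewer calls, in the list as over all genes. Between E11.5 and E12.5, where 2.62% of all genes were called, 2 genes fell, Igf2bp1 (-1.29, adjusted p = 0.0029) and Akt1 (-0.77, adjusted p = 0.023). Igf2bp1 was lost with the mean of all its probe sets (0.077), and Akt1 without control E11.5 male replicate 1 (0.15) or control E12.5 male replicate 2 (0.063) or 3 (0.15). Between E12.5 and E13.5 (1.1% of all genes called), 1 rose, Igf2bp3 (0.72, adjusted p = 0.018), a call lost without any 1 of control E12.5 male replicates 1 (0.17) and 2 (0.062) and control E13.5 male replicates 1 (0.086) and 2 (0.071). Over the whole interval, added after the data were seen, 10 genes rose and 8 fell in control females (26.3% of all genes called), and 7 rose and 3 fell in control males (11%, with 6 in all without control E11.5 male replicate 2 or 3). The number of members called over that interval was 1 in females, Igf1r, and 2 in males, Igf1r and Igfbp2. Pik3r3 rose by 2.38 in females (adjusted p = 8.3e-07) and by 1.21 in males (adjusted p = 0.0076, lost without control E13.5 male replicate 2 at 0.059), and Akt1 fell by -1.26 in males (adjusted p = 4e-05).

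In Rnf2delta females, 6 of the 50 rose and 4 fell between E11.5 and E12.5 (18.6% of all genes called), or 6 in all without Rnf2delta E11.5 female replicate 1. Pik3r3 rose by 1.70 (adjusted p = 0.00019), while Igf2bp1 (-1.30, adjusted p = 0.00016), Akt1 (-1.08, adjusted p = 0.00017) and Rptor (-0.70, adjusted p = 0.0028) fell. In Rnf2delta males 0 were called (0.547% of all genes), with 10 at an unadjusted p under 0.05 and 3 called with array weights.

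Between control females and males, 3 genes were higher and 8 lower in females at E12.5 (19.1% of all genes called), and 10 higher and 7 lower at E13.5 (16.3%). The 11 at E12.5 became 6 without control E12.5 male replicate 1 or control E12.5 female replicate 1, 7 without control E12.5 male replicate 2, and 6 with array weights, and the 17 at E13.5 became 10 without control E13.5 female replicate 2. The lower genes at E12.5 were led by Inppl1 (-1.21, adjusted p = 5.7e-06), the PI3K catalytic subunit genes Pik3ca (-1.06, adjusted p = 2.6e-05) and Pik3cb (-0.95, adjusted p = 0.0029), and the regulatory subunit gene Pik3r2 (-0.75, adjusted p = 0.0036). At E13.5, Pdpk1, the gene of a kinase that activates AKT, was higher in females by 0.96 (adjusted p = 0.0024) and Inppl1 lower (-1.0, adjusted p = 6.4e-05). Pik3r3 was higher in E13.5 females by 1.01 (adjusted p = 0.019), a call lost without control E13.5 male replicate 1 (0.13) or control E13.5 female replicate 2 (0.14). At E11.5, 0 were called in controls and 0 in Rnf2delta, with 1 each at an unadjusted p under 0.05 and 0 each with array weights. In Rnf2delta at E12.5, 5 were higher and 6 lower in females (15.2% of all genes called), a count of 11 that became 3 to 6 without any 1 of Rnf2delta E12.5 male replicates 1 to 3 and Rnf2delta E12.5 female replicates 1 and 2, 7 with a replicate block and 6 with no filter. The lower genes included Pik3ca (-0.66, adjusted p = 0.0054) and Inppl1 (-0.64, adjusted p = 0.0072), and the higher genes included Igf2 and Grb10, as given above.

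The members did not move as 1 block over the 30 arrays. The level of Igf1r correlated with that of Insr at r = 0.551, of Igfbp3 at 0.498 and of Igfbp2 at 0.215 (Pearson, 30 arrays, which share the same 10 groups). The 5 genes most like Igf1r in level among all genes tested were Nf1, a RAS inhibitor gene (r = 0.93), the piRNA pathway genes Mael (0.894) and Mov10l1 (0.881), the meiotic gene Tex11 (0.876) and Hspa4l (0.867). Nf1 averaged 4.68 ± 0.195 in Rnf2delta and 3.37 ± 0.278 in control E12.5 females, and reached 4.32 ± 0.265 in control E13.5 females (log2 signal, SD, n = 3 each). The 5 most like Igfbp2 were the glycolytic gene Ldha (r = 0.899), the glycerol-3-phosphate dehydrogenase gene Gpd2 (0.896), Sfmbt2 (0.891), the protease gene Ctsc (0.866) and the transcription factor gene Tead2 (0.863). Ldha averaged 7.77 ± 0.0102 in Rnf2delta and 6.34 ± 0.588 in control E11.5 females, and 6.98 ± 0.0663 in Rnf2delta and 5.28 ± 0.128 in control E12.5 males.

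The level of Insr was most like that of the RNA-binding protein gene Qk (r = 0.839), the centromere gene Cenpk (0.821) and Zfp931 (0.788). For the remaining members the closest correlations were lower: Efnb2 for Igfbp3 (0.7), Lin28a for Igfbp4 (0.696), Tmem45b for Igfbp5 (0.713) and Lrrcc1 for Irs2 (0.604). All of these correlations describe the same arrays that showed the differences above, and no p is attached to them.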

How the data were processed

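Per the labels' protocols, gonads were dissociated with trypsin, GFP-positive cells were sorted, and the RNA of 500 cells was amplified by PCR for each sample and hybridised to Affymetrix arrays. The authors deposited log2 signals for 34760 probe sets on 30 arrays. The submitters' processing notes name R 2.15 and affy 1.36. Background correction and normalization methods were not given in the sources used here, and array medians of 2.52 to 2.66 show that the table was already normalized. Probe sets were named from the platform annotation, with symbols updated through RefSeq (GRCm38.p6): 21640 had 1 symbol, 1321 several and 11799 none listed. The probe set with the highest mean was used for each of 19937 genes. The level of a probe set also depends on its sequence, so members are set against each other only in their differences, and markers against the ranks of their own array. The 15180 genes above the 40th percentile of their own array on at least 3 arrays were tested, and 4757 were not.

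All contrasts came from 1 limma fit (limma 3.58.1, R 4.3.3) of 30 arrays with 1 mean per group, 20 residual degrees of freedom, two-sided moderated tests, Benjamini-Hochberg adjustment over all genes and a threshold of 0.05. The fit was tested on simulated data. All members are named; of the pathway list, Igf1, Igf2, Igf2r and up to 4 called genes per comparison with the largest change and no overlap of arrays. Members, lists and tests were chosen with earlier results of these data known. The number of arrays limits the precision, and scan dates were not used here. Of the pathway list, 5 genes were not analysed here, and Insrr and Stc1 did not pass the filter. Sequences are RefSeq's. The alternatives were array weights, quantile normalization, no filter, the mean of a gene's probe sets, a replicate block, only the compared groups, leaving out the 6 E12.5 female arrays, and leaving out each array in turn. The comparison of E13.5 with E11.5 was added after the data were seen.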

Additional observations from a re-analysis of the deposited data

How the results depend on the processing

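The genotype differences of the 7 members past the filter on low values moved by less than the spread between replicates in 353 of 357 alternatives, and no called result reversed. Irs1 was not among these. Its E12.5 female difference ran from -0.44 to 0.09 when 1 array was left out. Of 1666 alternatives for members' tested differences, 12 ended a call and 12 made one. Of 2200 for pathway genes, run only for genes called in the comparison and for Igf1, Igf2 and Igf2r, 276 ended a call and 4 made one. Counts of called members depended on single arrays: leaving out 1 array in turn gave 1 to 2 (1 with all arrays) for E13.5 minus E12.5 in control females, 0 to 1 (1) in control males, 1 to 4 (3) for the stages in Rnf2delta females, 0 to 1 (0) for sex in E12.5 controls, 1 to 2 (1) for sex in E12.5 Rnf2delta, 0 to 1 (0) for each of the variation of the genotype difference with sex at E12.5 and with stage in females, and 1 to 2 for E13.5 minus E11.5 in control females (1) and males (2). With only the compared groups, E13.5 minus E11.5 in control females called 2. Array weights called 1 member between the stages in Rnf2delta males (0 without weights) and 3 between E13.5 and E11.5 in control males (2 without). For the pathway list between genotypes, leaving out 1 array gave 1 to 2 called genes in E11.5 females (2), 3 to 12 in E12.5 females (9) and 1 to 2 in E12.5 males (1). Array weights gave 1 in E12.5 females and 3 in E12.5 males, and only the compared groups gave 1 in E12.5 females. Replicate numbers did not pair the samples: deviations of same-numbered arrays from their group means correlated with a median of 0.00364 over 135 pairs (range -0.158 to 0.3). A replicate block left 3 called members between the stages in Rnf2delta females and changed no count of called members; for the pathway list it gave 7 genes, against 11 without the block, between Rnf2delta females and males at E12.5. Signals near the array's lower end, as for Irs1 and Igfbp5, limit what can be seen of those genes.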
